A study of Mus musculus with 12 samples.

Results

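Enolases are the glycolytic enzymes that turn 2-phosphoglycerate into phosphoenolpyruvate. The active enzyme is a dimer. Eno1 encodes alpha enolase, the form found in most tissues and in glia; Eno2 encodes gamma enolase, the neuron-specific enolase used as a neuronal marker; Eno3 encodes beta enolase of skeletal and heart muscle; Eno4 encodes a divergent enolase best known from sperm, where it is needed for motility. Eno1b is a second gene with an alpha enolase coding sequence. All 5 genes carrying these symbols were described, out of 55678 gene names in the expression table. The family was chosen because Eno1b differed strongly between the mouse strains, so its strain differences are given as a description and were not tested.

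The samples were medial prefrontal cortex, a frontal brain region involved in the control of stress responses, from mice of 9 to 10 weeks. Inbred mice of the strains C57BL/6JmsSlc, called B6 here, and BALB/cCrSlc, called BALB/c, were either handled without restraint (control) or given chronic restraint stress (CRS) of 6 h on each of 21 days. No transgene or other agent was named for any group. Each of the 4 groups had 3 libraries, called here by the number in their label, and the study asked whether the response of this tissue to restraint differs between the strains. The tissue was a 1.5 mm punch taken between 2.0 and 1.5 mm in front of bregma after behavioural tests, and RNA was made into stranded, poly(A)-selected libraries read as pairs of 150 bases to about 6 Gb a sample. The labels give neither the sex of the mice nor whether a library pooled animals, so p-values measure the spread between these samples.

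Levels were given as TPM, the number of transcripts of a gene per fixed total, which is an abundance corrected for transcript length and scaled so that each library sums to 1000000; the read depth of a library is therefore not known. Neuronal markers were abundant in every library, with a summed level of 2156 to 4449.8 TPM for 5 genes. Libraries varied in markers of neighbouring tissue. The sum of 5 oligodendrocyte genes ran from 2258 to 8773 TPM in B6 and from 425 to 2795 TPM in BALB/c, and the sum of 5 striatal neuron genes from 163 to 2247 TPM in B6 and from 72.5 to 295 TPM in BALB/c. BALB/c CRS 12 stood apart in 18S ribosomal RNA, at 3.97% of TPM against 0.0307% to 0.169% in the other 11 libraries. In bulk tissue, fewer cells of a type and less RNA per cell cannot be told apart.

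In the reference genome (GRCm38, GENCODE M21 annotation), Eno1 lies at chr4:150236721-150248879 on the plus strand, and its main coding transcript has 12 exons, 11 of them with coding sequence. Eno1b lies on chromosome 18 and is annotated as protein-coding, with its coding sequence in a single exon. Both encode 434 amino acids. Another locus, Gm4735 at chr2:80837141-80838442 on the plus strand, is annotated as a processed pseudogene, a copy of a spliced messenger RNA set into the genome, and covers the alpha enolase coding sequence in 1 exon. Eno2 lies at chr6:124760053-124769673 on the minus strand, Eno3 at chr11:70657202-70662513 on the plus strand and Eno4 at chr19:58943425-58971421 on the plus strand. Eno4 overlaps Hspa12a on the other strand.

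The first 3 of these loci are hard to tell apart by sequence. Eno1b differed from Eno1 at 8 of 1305 coding bases (99.387% identity), and Gm4735 differed from Eno1 at 5 of 1302 (99.616%). At all 5 of the Gm4735 positions, Eno1b held the same base as Gm4735, so these 2 loci differed from each other at 3 bases only. None of the differences changed an amino acid, and all lay between coding positions 726 and 1233, counted from the first base of the start codon. From Eno1 to Gm4735 they were T726C, T816G, A1056G, T1224C and C1233T. Eno2 and Eno3 differed from Eno1 at 325 and 304 of the 1305 coding bases.

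**Figure D1:**
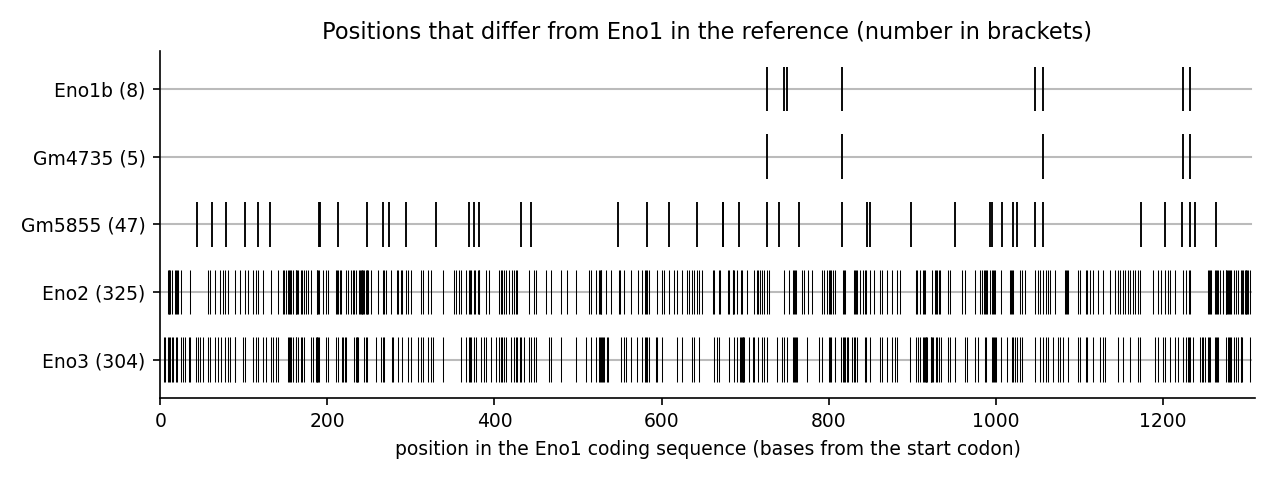
Positions at which each locus differs from Eno1 in the GRCm38 reference; the horizontal axis is the position in the Eno1 coding sequence in bases from the start codon, each row is a locus, each vertical line is a differing base, and the number in brackets is their count. Eno1b (8) and Gm4735 (5) differ from Eno1 only in the later part of the sequence, whereas Eno2 (325) and Eno3 (304) differ along its whole length.

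The stretches around these bases show what a read has to separate. They are printed 5′ to 3′ in the sense of the messenger RNA from GRCm38. In Eno1 the capitals mark the bases at which Gm4735 differs; in the other genes capitals mark every base that is not that of Eno1. Coding positions 706 to 746, each within 1 exon, read as follows, at chr4:150246608-150246648 (Eno1, plus strand), chr2:80837846-80837886 (Gm4735, plus strand), chr6:124763846-124763886 (Eno2, minus strand) and chr11:70661035-70661075 (Eno3, plus strand).
Eno1: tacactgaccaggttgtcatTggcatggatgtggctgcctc
Gm4735: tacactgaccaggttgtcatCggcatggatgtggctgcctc
Eno2: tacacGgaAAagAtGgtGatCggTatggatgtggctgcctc
Eno3: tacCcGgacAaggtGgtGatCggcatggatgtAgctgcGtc
Coding positions 796 to 836 lie at chr4:150246698-150246738 (Eno1, plus strand), chr2:80837936-80837976 (Gm4735, plus strand) and chr6:124763756-124763796 (Eno2, minus strand).
Eno1: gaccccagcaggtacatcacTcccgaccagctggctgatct
Gm4735: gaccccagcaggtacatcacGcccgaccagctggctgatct
Eno2: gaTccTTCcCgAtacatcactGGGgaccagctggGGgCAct
Coding positions 1204 to 1253 hold both of the last 2 differences; they span an intron in Eno1 (chr4:150248088-150248503, plus strand) and none in Gm4735 (chr2:80838344-80838393, plus strand).
Eno1: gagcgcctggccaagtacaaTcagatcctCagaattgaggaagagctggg
Gm4735: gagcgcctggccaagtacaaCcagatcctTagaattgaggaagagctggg
In each stretch Gm4735 is set apart from Eno1 by 1 or 2 bases, while Eno2 and Eno3 carry 8 differences each in the first stretch, and Eno2 carries 13 in the second.

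The consequence for counting can be put as a share of sequence. Of all 150-base stretches of the single-exon Eno1b transcript, 57.01% occur letter for letter in an Eno1 transcript. For Gm4735, 59.32% of such stretches occur in Eno1 and 73.72% in Eno1b. Each of these counts takes a single stretch alone. The libraries were read as pairs, in which either read can separate the loci, and shares for pairs were not computed. Of the 31-base words in Eno1b transcripts, 81.79% occur in Eno1. Eno2, Eno3 and Eno4 shared 0 of their 31-base words with Eno1, with Eno1b or with Gm4735. The levels of Eno1, Eno1b and Gm4735 are therefore uncertain one by one, and their sums are given beside them.

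Eno1, the alpha enolase gene, had its higher level in B6. In B6 controls 2, 3 and 9 it stood at 593, 718 and 885 TPM. In B6 CRS 12, 13 and 14 it stood at 591, 660.1 and 770.1 TPM. In BALB/c controls 5, 9 and 10 the values were 292, 264 and 280.3 TPM, and in BALB/c CRS 12, 13 and 15 they were 277, 288 and 287 TPM. Every BALB/c library lay below every B6 library, and the BALB/c libraries were close together while those of B6 were spread. The mean of the B6 controls was 732 ± 147 TPM (SD, n = 3) and that of the BALB/c controls 279 ± 14.0 TPM (SD, n = 3), a ratio of 2.63 of B6 to BALB/c. Under CRS they were 674 ± 90.1 TPM (SD, n = 3) and 284 ± 6.19 TPM (SD, n = 3), a ratio of 2.37.

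Eno1b went the other way. It stood at 1.57, 2.04 and 3.21 TPM in B6 controls 2, 3 and 9 and at 1.66, 1.57 and 1.32 TPM in B6 CRS 12, 13 and 14. In BALB/c it stood at 262, 265 and 271 TPM in controls 5, 9 and 10 and at 271, 303 and 278 TPM in CRS 12, 13 and 15. No B6 library came near any BALB/c library. Group means were 2.27 ± 0.84 TPM (SD, n = 3) in B6 controls, 1.52 ± 0.179 TPM (SD, n = 3) in B6 CRS, 266 ± 4.75 TPM (SD, n = 3) in BALB/c controls and 284 ± 17.2 TPM (SD, n = 3) in BALB/c CRS. The BALB/c mean was 117 times the B6 mean in controls and 187 times under CRS. On the log2(TPM + 1) scale, which understates changes of low values, Eno1b differed by 6.38 (SE 0.15) in controls and 6.82 (SE 0.15) under CRS, and Eno1 by -1.37 (SE 0.14) and -1.23 (SE 0.14).

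Gm4735, like Eno1b, was high in BALB/c alone. It was listed at 0 in all 6 B6 libraries. In BALB/c controls 5, 9 and 10 it was at 323, 308 and 317 TPM, and in BALB/c CRS 12, 13 and 15 at 285, 338 and 309 TPM. Its level in BALB/c thus lay close to those of Eno1 and Eno1b in the same libraries. A further processed pseudogene of Eno1, Gm5855, with 47 differing coding bases, stayed at or below 0.606 TPM in every library. A search of GENCODE M21 matched Eno1 to 17 processed pseudogenes, of which 16 had a name in the table. This count did not use the identity and cover limits set for near-identical copies. Levels are given here for Gm4735 and Gm5855 only.

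**Figure D2:**
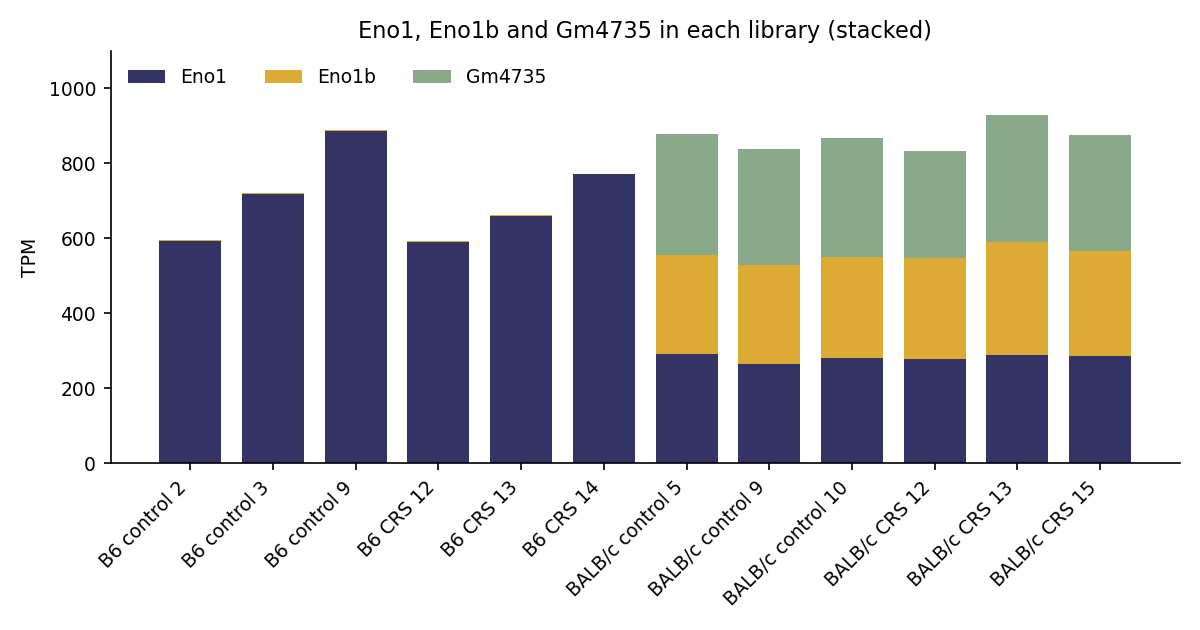
Stacked bars of Eno1, Eno1b and Gm4735 in TPM (vertical axis) for each of the 12 libraries (horizontal axis). B6 bars of 593 to 889 TPM are almost wholly Eno1, and BALB/c bars of 833 to 929.7 TPM split into 3 parts of like height.

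When the copies were added, the strains came much closer. Eno1 plus Eno1b gave 595, 720.4 and 889 TPM in B6 controls, 593, 662 and 771 TPM in B6 CRS, 554, 529 and 552 TPM in BALB/c controls and 548, 592 and 565 TPM in BALB/c CRS. BALB/c libraries still lay below B6 libraries, with mean ratios of BALB/c to B6 of 0.742 in controls and 0.841 under CRS. Under CRS the gap was narrow, with BALB/c CRS 13 at 592 TPM and B6 CRS 12 at 593 TPM. This strain order was not checked under median-of-ratios scaling. With Gm4735 added as well, BALB/c controls reached 877, 838 and 869 TPM and overlapped the B6 controls, at a ratio of 1.17. Under CRS the sums in BALB/c were 833, 929.7 and 874 TPM, above all 3 B6 libraries, at a ratio of 1.3. The order of the strain means thus turned over with the addition of Gm4735.

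TPM divides by transcript length, and the annotated Gm4735 transcript has 1302 bases against 2027 in that of Eno1 with 12 exons. The TPM of each locus was therefore also multiplied by the length in kb of its longest annotated transcript. Within a library, this makes the sum roughly proportional to fragments in place of molecules. It is approximate, since all transcripts of a locus took the same length and the scale can differ between libraries. This weighting was chosen after the values of Gm4735 had been seen. The weighted sum of the 3 loci was 1205, 1459.8 and 1801 in B6 controls against 1482, 1412 and 1467 in BALB/c controls, with a ratio of 0.976. Under CRS it was 1202, 1341 and 1563 in B6 against 1418, 1568 and 1481 in BALB/c, with a ratio of 1.09. The strains overlapped in both conditions. Whether the reads of BALB/c came from Eno1, from Eno1b or from Gm4735 was not tested, as the table holds no reads.

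The share of Eno1b in Eno1 plus Eno1b followed the strain. It was 0.265%, 0.283% and 0.361% in B6 controls and 0.28%, 0.237% and 0.171% in B6 CRS. In BALB/c it was 47.3%, 50.1% and 49.2% in controls and 49.4%, 51.3% and 49.2% in CRS. Within the sum of the 3 loci in BALB/c controls, the mean shares were 32.3% for Eno1, 30.9% for Eno1b and 36.7% for Gm4735. Under CRS these shares were 32.4%, 32.3% and 35.3%. The 3 loci thus held similar parts of the sum in BALB/c libraries.

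The table lists values by row, apparently a row for each transcript but labelled by gene name alone, so rows are numbered here in table order. Eno1 had 11 rows, and its second row held 88.3% of its level. The difference between strains in the level of the gene lay in that row and not in the sum of the others. The values of this second row were 554, 665 and 828 TPM for the B6 controls, without overlap with the 233, 211 and 217 TPM of the BALB/c controls. The CRS values of this row were 539, 599 and 705 TPM (B6) and 219.9, 225 and 219 TPM (BALB/c). The other Eno1 rows together gave 38.9, 53.7 and 57.1 TPM for B6 controls, overlapping the 58.5, 53.4 and 63.1 TPM for BALB/c controls. They overlapped under CRS too, with a B6 mean of 59.4 ± 6.53 TPM (SD, n = 3) and a BALB/c mean of 62.8 ± 5.38 TPM (SD, n = 3). Single minor rows within that sum did differ, in opposite directions. Rows 8, 9 and 10 were higher in B6 without overlap, row 8 at 2.19 to 9.42 TPM against 0 to 0.456 TPM in BALB/c. Row 6 was higher in BALB/c, at 6.69 to 16.5 TPM against 0 to 5.14 TPM in B6.

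Of the 2 Eno1b rows, the second was listed at 0 in all 6 B6 libraries and at 260.2 to 301 TPM in BALB/c. The first was low in both strains, between 1.32 and 3.21 TPM in B6 and between 1.65 and 3.63 TPM in BALB/c. All of the Eno1b level in B6 thus came from the first row, whose ranges overlapped between strains. The difference of Eno1b between strains lay in its second row.

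Eno2, the neuronal enolase, was among the most abundant transcripts of the tissue in both strains. It stood at 550.0, 612 and 681 TPM in B6 controls and at 613, 566 and 688 TPM in B6 CRS. In BALB/c it stood at 703, 603 and 631 TPM in controls and at 578, 746 and 754 TPM in CRS. The strains overlapped in both conditions. The control means were 614 ± 65.8 TPM (B6) and 645 ± 51.5 TPM (BALB/c), and the CRS means 622 ± 62.0 TPM (B6) and 693 ± 99.5 TPM (BALB/c), each with SD and n = 3. The log2 difference between strains was 0.07 (SE 0.13) in controls and 0.15 (SE 0.13) under CRS. Of the 16 Eno2 rows, the third held 63.3% of the level and ranged from 359.8 to 459 TPM over the 12 libraries. The next row held 15.0%, and 1 row was listed at 0 throughout.

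The ratio of gamma to alpha enolase is at times used to describe the balance of neurons and other cells. How it came out here depended on which alpha enolase loci were counted. Eno2 over Eno1 alone was 0.77 to 1.04 in B6 and 2.09 to 2.63 in BALB/c, with no overlap. Over Eno1 plus Eno1b the ratio was 0.767 to 1.03 in B6 and 1.06 to 1.34 in BALB/c. Over Eno1, Eno1b and Gm4735 it was 0.767 to 1.03 in B6 and 0.694 to 0.863 in BALB/c, and the strains overlapped. The direction of the strain difference in mean ratio changed between the second and the third denominator, with BALB/c controls at 1.4 and then at 0.884 times the B6 control mean.

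**Figure D3:**
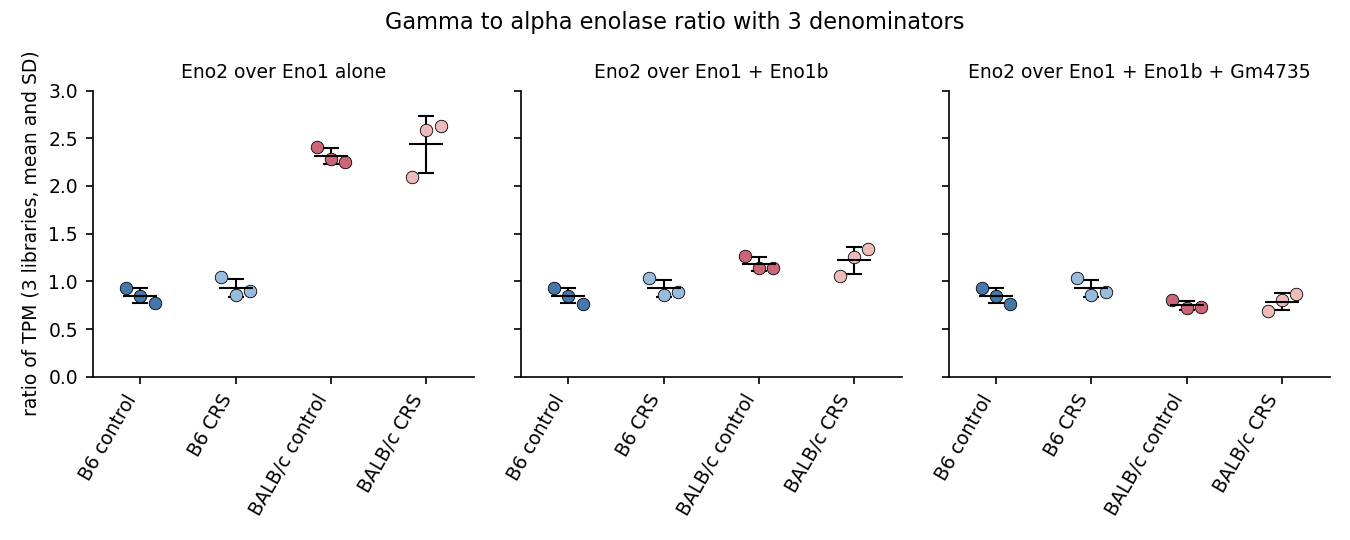
Ratio of Eno2 TPM to the TPM of Eno1 alone, Eno1 plus Eno1b, and Eno1 plus Eno1b plus Gm4735 (vertical axis, from 0) in the 4 groups; points are libraries (3 a group), the long tick is the mean and bars are 1 SD. BALB/c lies at 2.09 to 2.63 in the left panel and at 0.694 to 0.863 in the right panel, while B6 hardly moves.

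Eno3, the muscle enolase, was far below Eno1 and Eno2. It stood at 9.51, 7.91 and 11.0 TPM in B6 controls and at 6.32, 8.87 and 8.65 TPM in B6 CRS. In BALB/c it stood at 8.57, 7.46 and 5.9 TPM in controls and at 5.98, 5.55 and 7.81 TPM in CRS. The strains overlapped in both conditions, although the BALB/c means (7.31 ± 1.35 and 6.45 ± 1.2 TPM) were below those of B6 (9.48 ± 1.56 and 7.95 ± 1.41 TPM; SD, n = 3 each). Its 8 rows shared the level unevenly between libraries: the largest held 29.5% of the level over all libraries, yet was listed at 0 in 5 of 12. A list of 6 skeletal muscle genes summed to 6.73 to 12.0 TPM. Ckm, Myh1 and Myh4 were below 1 TPM in every library, while Acta1 (skeletal actin) ran from 5.08 to 7.84 TPM, Mylpf from 0.858 to 3.37 TPM and Tnnt3 from 0 to 1.47 TPM. The part of muscle RNA in the Eno3 level was not tested.

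Eno4, the sperm enolase, was the lowest of the family in BALB/c. It stood at 2.22, 1.63 and 1.42 TPM in B6 controls and at 3.41, 2.21 and 2.18 TPM in B6 CRS. In BALB/c it stood at 1.01, 1.43 and 0.992 TPM in controls and at 0.454, 1.24 and 1.33 TPM in CRS. The strains just overlapped in controls and did not overlap under CRS, where the B6 mean was 2.6 ± 0.699 TPM and the BALB/c mean 1.01 ± 0.483 TPM (SD, n = 3 each). The lowest value came from BALB/c CRS 12, the library with high 18S RNA. Without it, the log2 difference between strains under CRS was -0.64 in place of -0.86. The second of 4 Eno4 rows held 85.5% of its level. Of 6 sperm and testis genes, Prm1, Tnp1, Tnp2 and Akap4 were listed at 0 in every library, and the 6 summed to at most 0.191 TPM. Whether the authors' quantification used the strand is not given in the sources used here, so reads of Hspa12a in Eno4 were not told apart.

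**Figure D4:**
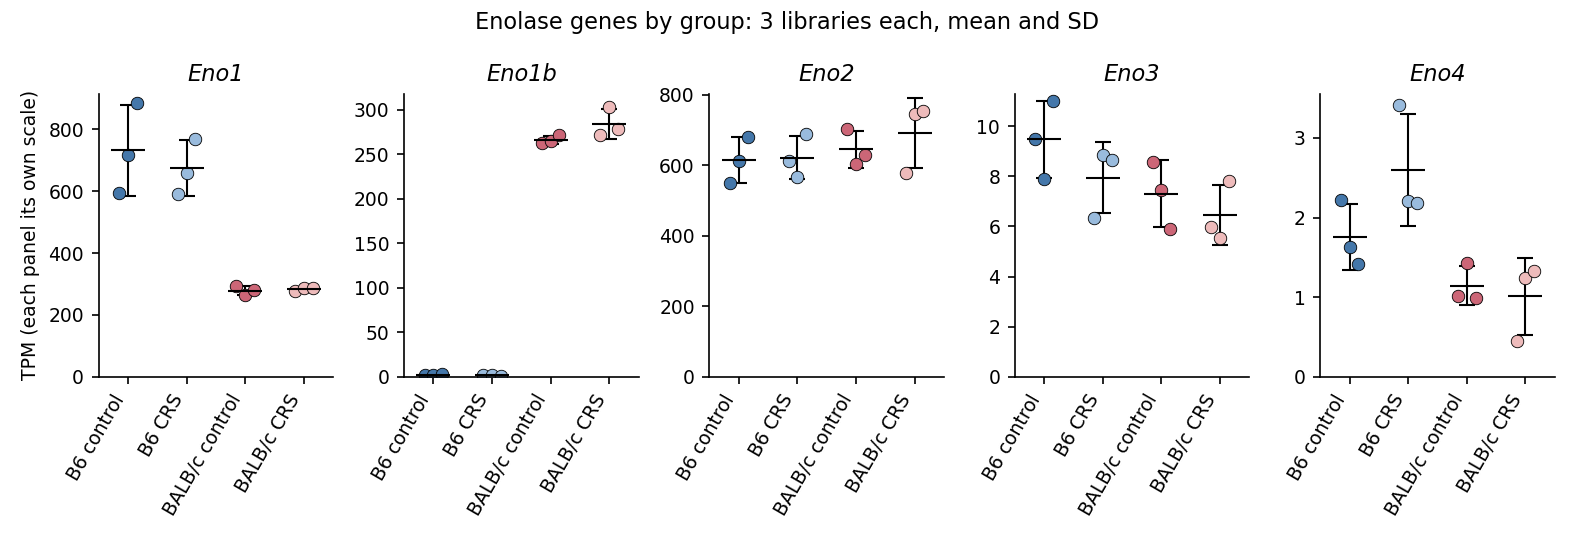
TPM of each enolase gene (vertical axes, each from 0 and on its own scale) in the 4 groups; points are libraries (3 a group), the long tick is the mean and bars are 1 SD. In BALB/c, Eno1 is lower and Eno1b higher, whereas Eno2 stays between 550.0 and 754 TPM in all libraries.

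TPM is corrected for length, so levels can be ordered between genes. In B6 controls, Eno1 and Eno2 came first and overlapped in range, Eno3 followed, and Eno1b and Eno4 came last and overlapped. In BALB/c controls, Eno2 came first, Eno1 and Eno1b followed and overlapped, then Eno3 and then Eno4. This order holds for the loci taken singly: the sum of Eno1, Eno1b and Gm4735, at 838 to 877 TPM, lay above Eno2, at 603 to 703 TPM, in all BALB/c controls. By mean TPM over the 6 libraries of a strain, Eno1 ranked 108 of 16423 tested genes in B6 and 404 in BALB/c, Eno1b 13833 and 412, and Eno2 128 and 112. Eno3 ranked 9563 and 9965, and Eno4 13484 and 14890. The 5 genes together held 1156 to 1583 TPM in B6 and 1132 to 1345 TPM in BALB/c, and overlapped in both conditions. The groups of the strains did not overlap for 2 of 5 members in controls (Eno1 and Eno1b), where 22.9% of all tested genes did not overlap, and for 3 of 5 under CRS (also Eno4), where 29.3% did not. Since the family was chosen on this contrast, nothing is read from these counts.

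In B6, Eno1 broadly rose with the neuron and the excitatory cortical neuron marker sums across libraries, and the striatal sum broadly fell. The excitatory sum was lowest in B6 control 2 (1192 TPM) and highest in B6 control 9 (2469 TPM). B6 control 9 had the highest Eno1 (885 TPM), the highest neuron marker sum (4449.8 TPM), and the lowest oligodendrocyte (2258 TPM) and striatal (163 TPM) sums among B6 libraries. B6 control 2 had the second lowest Eno1 of the 6 (593 TPM), the lowest neuron sum (2156 TPM), and the highest oligodendrocyte (8773 TPM) and striatal (2247 TPM) sums. Other values did not run in this way. B6 control 9 also had the lowest astrocyte sum of the B6 libraries, at 358 TPM against 485 to 538 TPM. B6 CRS 12 had the lowest Eno1 (591 TPM), but its oligodendrocyte sum (4489 TPM) lay below that of B6 CRS 13 (7113 TPM). Eno2 had its lowest value of all 12 libraries in B6 control 2. The part of these markers in the enolase levels was not tested.

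The restraint contrasts were not used in choosing the family and were tested with limma on log2(TPM + 1), fitted over all 16423 genes with Benjamini-Hochberg adjustment. No enolase gene passed this test. In B6, 0 of 5 were called at an adjusted p-value below 0.05, as were 0% of all tested genes, and in BALB/c 0 of 5, against 0.00609% of all tested genes. For the difference between the strains in the CRS effect the count was 0 of 5, against 0% of all genes, and for the effect averaged over strains 0 of 5, against 0.00609%. Before adjustment, 1 member in B6 and 0 in the other 3 contrasts had a p-value below 0.05, while 4.82% of all genes did in B6, 3.03% in BALB/c, 2.7% for the interaction and 5.17% for the averaged effect. Control and CRS libraries overlapped for all 5 members in both strains, so that 0 of 5 were apart, against 8.33% of all tested genes in B6 and 7.39% in BALB/c.

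The log2 changes of Eno1 and Eno2 were below their standard errors in all 4 contrasts, while those of Eno1b, Eno3 and Eno4 exceeded them in B6. Eno1 went from 732 to 674 TPM in B6, a log2 change of -0.11 (SE 0.14, limma adjusted p 1.0), and from 279 to 284 TPM in BALB/c, a log2 change of 0.03 (SE 0.14, limma adjusted p 1.0). The direction in B6 rested on control 9, and without it the log2 change was 0.04. In BALB/c the Eno1 change turned to -0.03 under median-of-ratios scaling. Eno1b had the lowest unadjusted p of the members, for a log2 change of -0.35 in B6 (SE 0.15, limma p 0.0399, adjusted p 1.0), at levels of 1.32 to 3.21 TPM. Without B6 control 9, this change was -0.16. In BALB/c, where Eno1b was high, its log2 change was 0.09 (SE 0.15, limma adjusted p 1.0), and the difference between the strains in this change was 0.44 (SE 0.22, limma adjusted p 1.0).

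Eno2 had log2 changes of 0.02 (SE 0.13, limma adjusted p 1.0) in B6 and 0.09 (SE 0.13, limma adjusted p 1.0) in BALB/c. Without BALB/c CRS 12, the lowest of its group, the latter was 0.22. Eno3 was lower on average after CRS in both strains, by -0.23 (SE 0.18) in B6 and -0.16 (SE 0.18) in BALB/c on the log2 scale. Its effect averaged over strains was -0.19 (SE 0.13, limma adjusted p 0.96). The change was -0.09 in B6 without CRS 12 and -0.05 in BALB/c without control 5, and with a replicate block it turned to 0.02 in B6 and 0.09 in BALB/c. Eno4 had a log2 change of 0.38 (SE 0.22, limma adjusted p 1.0) in B6 and -0.12 (SE 0.22, limma adjusted p 1.0) in BALB/c. The latter was 0.1 without BALB/c CRS 12. The interaction for Eno4 was -0.5 (SE 0.32, limma adjusted p 1.0). The median log2 change of the 5 members was -0.11 in B6 and 0.03 in BALB/c, beside medians of 0.0 and 0.05 over all tested genes.

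**Figure D5:**
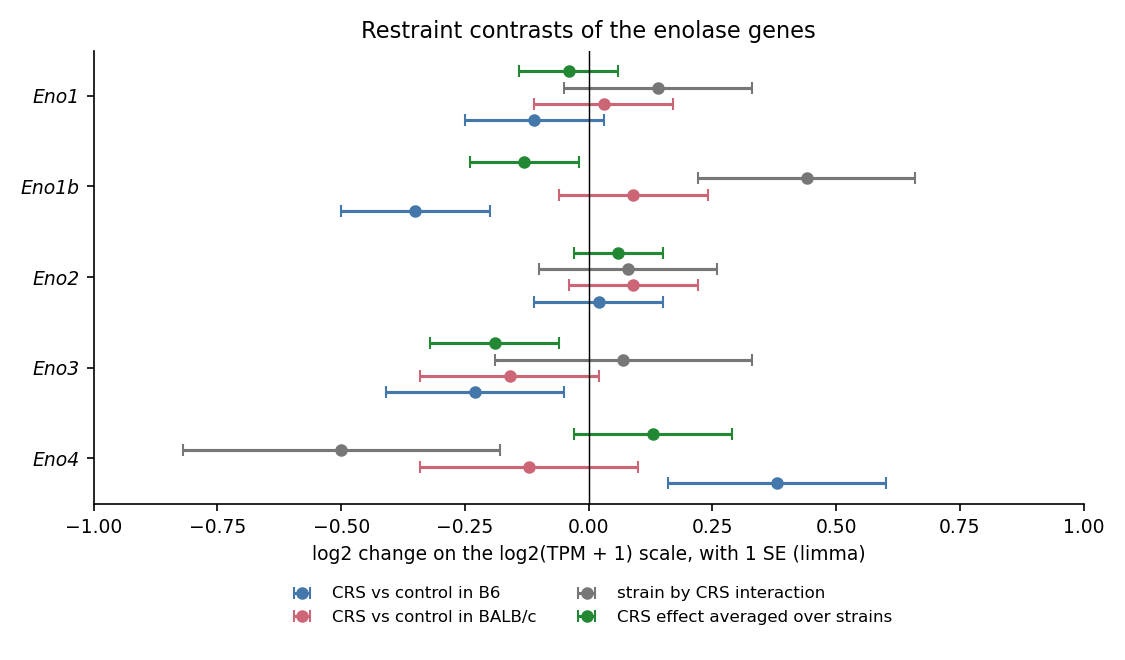
Log2 change on the log2(TPM + 1) scale with 1 SE (horizontal axis) for each enolase gene (rows) in 4 restraint contrasts of the limma fit, each in its own colour. Values run from -0.5 (Eno4, interaction) to 0.44 (Eno1b, interaction), and no contrast of any member passed an adjusted p-value of 0.05.

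The sums of the near-identical genes, and the share of Eno1b in Eno1 plus Eno1b, overlapped between control and CRS libraries in both strains. Eno1 plus Eno1b differed between CRS and control by -59.2 TPM in B6 (exact permutation test, two-sided, p = 0.6, n = 3 a group) and by 23.2 TPM in BALB/c (exact p = 0.3, n = 3 a group). The BALB/c difference was 0.226 TPM under median-of-ratios scaling and 11.4 TPM without BALB/c CRS 13. The smallest p that 3 against 3 libraries allow is 0.1. The difference in B6 was 17.8 TPM without B6 control 9 and -129.0 TPM without B6 control 2. The effect averaged over strains was -18.0 TPM (exact permutation over 400 relabellings within strains, p = 0.75), and without B6 control 9 it was 20.5 TPM. With Gm4735 added, the difference in BALB/c was 17.6 TPM (exact p = 0.7, n = 3 a group). The share of Eno1b differed by -0.0736 percentage points in B6 (exact p = 0.2, n = 3 a group) and by 1.08 percentage points in BALB/c (exact p = 0.5, n = 3 a group). Averaged over strains the share differed by 0.504 percentage points (exact p = 0.495). Without BALB/c control 5, the BALB/c and the averaged difference were 0.298 and 0.112 percentage points, without BALB/c CRS 13 they were 0.427 and 0.177, and without BALB/c control 9 they were 1.71 and 0.817.

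Within the sum of all 3 loci, the split of the BALB/c libraries did part by treatment. The share of Gm4735 was 36.8%, 36.8% and 36.5% in controls 5, 9 and 10 and 34.2%, 36.3% and 35.3% in CRS 12, 13 and 15, so that all CRS libraries lay lower. The share of Eno1b was 29.9%, 31.7% and 31.2% in those controls and 32.5%, 32.6% and 31.8% in CRS, so that all CRS libraries lay higher. Each of these separations had a two-sided exact permutation p of 0.1 (n = 3 a group), the smallest that the design allows, and does not pass 0.05. The mean differences were -1.41 percentage points for Gm4735 and 1.38 for Eno1b, and the share of Eno1 overlapped between the treatments. The 3 shares make up a whole, so a lower share of 1 locus raises the others and these separations are not independent. In TPM, Gm4735, Eno1b and Eno1 each overlapped between the treatments in BALB/c. Among all tested genes, 7.39% had groups apart in BALB/c. The split also rests on levels that are uncertain locus by locus.

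Single rows gave no call. Of 41 enolase rows in the table, 28 reached the filter of at least 1 TPM in at least 3 libraries and were fitted with all 46000 such rows. In B6, 0 of 28 were called, against 0.0109% of all rows, and in BALB/c 0 of 28, against 0%. For the interaction 0 of 28 were called, against 0%, and for the averaged effect 0 of 28, against 0.00435%. Rows with an unadjusted p-value below 0.05 numbered 0 in B6, 2 in BALB/c, 2 for the interaction and 2 for the averaged effect (limma), beside 4.87%, 3.94%, 3.97% and 4.84% of all rows. The lowest was a minor Eno1 row for the interaction, the last of the 11, at 0.379 to 9.98 TPM over the libraries, with a log2 difference of -1.55 (SE 0.51, limma p 0.0115, adjusted p 1.0).

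Enolase acts near the end of glycolysis, and 25 genes of the other steps and of lactate dehydrogenase were set beside it. Of these, 20 were tested; Hk3, Gapdhs, Pgk2, Pklr and Ldhc were too low. Under restraint, 0 of 20 were called in B6, in BALB/c, for the interaction and for the averaged effect. The shares of all tested genes called were 0%, 0.00609%, 0% and 0.00609% in the same order, so nothing is read from this count. Between strains in controls, 0 were higher and 2 lower in BALB/c, against 4.73% of all tested genes called in either direction (1.36% higher and 3.37% lower). Under CRS, 1 was higher and 2 were lower, against 7.7% of all genes in either direction (2.37% and 5.33%). The median log2 difference of the list was 0.03 in controls and 0.07 under CRS, beside -0.1 and -0.06 over all genes.

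Both lower genes act upstream of enolase, as do most genes of the list, so nothing is read from this. Gapdh, which encodes glyceraldehyde-3-phosphate dehydrogenase, had a mean of 3075 ± 429 TPM for B6 controls and of 2073 ± 48.4 TPM for BALB/c controls (SD, n = 3 each). Its log2 difference was -0.56 (SE 0.11, limma adjusted p 0.0111) in controls and -0.61 (limma adjusted p 0.00604) under CRS. Like Eno1, Gapdh has many processed pseudogenes, and its copies were not summed here. Aldoc, the brain aldolase of astrocytes, had means of 634 ± 11.6 TPM for B6 and 463 ± 11.5 TPM for BALB/c controls (SD, n = 3 each). Its log2 difference was -0.45 (SE 0.08, limma adjusted p 0.00571) in controls and -0.43 (limma adjusted p 0.00708) under CRS. The summed level of 5 astrocyte markers was also lower in BALB/c, at 358 to 538 TPM in B6 controls against 326 to 354 TPM in BALB/c controls and at 485 to 534 TPM against 293 to 428 TPM under CRS, and its part in the Aldoc difference was not tested. Hkdc1, a hexokinase domain protein named here after its values were seen, was the gene called higher under CRS. Its CRS mean was 2.16 ± 1.82 TPM for B6 and 14.7 ± 4.79 TPM for BALB/c (SD, n = 3 each). The log2 difference was 2.41 (limma adjusted p 0.0205) under CRS and 1.22 (limma adjusted p 0.251) in controls. The interaction of Hkdc1 was 1.19 (SE 0.77, limma adjusted p 1.0).

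Likeness was compared among 10489 genes, leaving out Gm4735 and all other symbols of Gm plus digits, Rik or -ps. For each member, the genes whose levels ran most nearly with it over the 12 libraries were found by Pearson's r of log2(TPM + 1). For Eno1b they were Ahcyl (r = 0.997), AK157302 (0.996) and Ppihl (0.996), which stood at means of 0, 0.257 and 0 TPM in B6 and of 21.4, 24.1 and 11.7 TPM in BALB/c. The genes most opposite to Eno1b were those of ribosomal proteins, Rps2 (r = -0.999), Rpl3 (-0.998) and Rps18 (-0.998). Rps2 stood at a mean of 726 TPM in B6 and 19.4 TPM in BALB/c. Near-identical copies of these ribosomal protein genes were neither searched for nor summed, so their single levels may be as uncertain as that of Eno1. The part of read assignment between copies in these differences was not tested. For Eno1 the nearest were Atrnl1 (0.995), Chd9 (0.992) and Hspa8 (0.989), all lower in BALB/c. These values rest on 2 clusters of libraries, the strains, and describe little beyond that split.

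For Eno2, whose strains overlapped, the nearest genes were Magee1 (0.984), Atp13a2 (0.964) and Mta3 (0.963), at means of 68.6, 57.2 and 51.3 TPM in B6. For Eno3 they were Otulin (0.909), Ppp2r5a (0.894) and Fam133b (0.863), and for Eno4 Pptc7 (0.967), Sdc2 (0.954) and Rpgr (0.954). The libraries compared are the same 12 for every pair, and the genes were picked as the highest of 10489 values.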

How the data were processed

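The deposited table gives 147902 rows with gene names and a column for each of 12 libraries. Neither header nor labels name its unit; the values were read as TPM because each deposited column sums to 1000000. The authors used cutadapt 2.9, Salmon and GRCm38, per the submitters' processing notes; roles, annotation release and use of strand are not given in the sources used here. Rows of 1 gene name were summed. Genes were kept where 3 or more libraries reached 1 TPM and were fitted with limma 3.58.1 (R 4.3.3, intensity trend) on log2(TPM + 1) as 4 group means, all 12 libraries sharing a spread, with Benjamini-Hochberg adjustment. The fit was also run on simulated data with independent noise, to check that the median estimate lay near the added change. No power or error rate is taken from that run. Sums and shares were compared by exact permutation. Sequences, gene types and coordinates came from GENCODE M21 (GRCm38). Near-identical copies of Eno1 were found by blastn 2.17.0 (minimum identity 95%, covering 80% or more of the shorter one).

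All members were named. Glycolytic genes were named if called under restraint or in both strain contrasts. For likeness, 3 genes per member were named by highest r among genes with a mean of at least 5 TPM. Symbols of Gm plus digits, Rik or -ps were left out, Gm4735 among them. Members and lists were chosen with earlier results of these data known. Alternatives were a pseudocount of 0.1, no filter on low values, median-of-ratios scaling, a replicate block, the largest Eno1 row alone, added copies, and leaving out each library.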

Additional observations from a re-analysis of the deposited data

How the results depend on the processing

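In the restraint contrasts, 0 enolase genes were called under every alternative run, including each of the 12 left-out libraries; the lowest adjusted p was 0.225 (limma, Eno1b in B6 without control 2). Of log2 changes, 13 of 240 with a library left out and 6 of 80 under other settings changed sign. With libraries left out, changes in B6 ran from -0.25 to 0.04 (Eno1) and -0.06 to 0.1 (Eno2), in BALB/c from -0.01 to 0.06 (Eno1) and -0.24 to 0.1 (Eno4), for the interaction from -0.01 to 0.28 (Eno1), -0.002 to 0.2 (Eno2) and -0.06 to 0.19 (Eno3), and averaged from -0.11 to 0.03 (Eno1). Eno1 plus Eno1b ran from -129.0 to 17.8 TPM in B6 (the highest without B6 control 9) and from -53.0 to 20.5 TPM averaged. Median-of-ratios scaling turned Eno1 in BALB/c to -0.03; it moved the median of all genes between strains in controls by 0.11 and left Eno1 at -1.25 there. A pseudocount of 0.1 moved the strain differences of Eno1b to 6.87 and 7.46 and of Eno4 to -0.57 and -1.37 (controls and CRS). Counting the largest Eno1 row alone moved the Eno1b share to 54.7% (BALB/c control) and 56.2% (BALB/c CRS).

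Numbers 9, 12 and 13 occur in both strains. With a replicate block on them, Eno1 was 0.05 in B6 and 0.12 averaged, and Eno3 was 0.02 in B6, 0.09 in BALB/c and 0.06 averaged; 0 enolase genes were called. The deviations of same-numbered libraries correlated at -0.242, -0.029 and -0.036 over 16423 genes, and the libraries share only a number. Depth is unknown, so counting error behind low values such as Eno4 cannot be given.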
